A study of Mus musculus with 2 samples.

Results

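The 10 genes described here encode S100 proteins, taken by name from the array: *S100a1*, *S100a4*, *S100a6*, *S100a8*, *S100a9*, *S100a10*, *S100a11*, *S100a13*, *S100a14* and *S100g*. They are 10 of 20887 named genes. Their 13 probes were found by matching the accession of each probe to its RefSeq gene, with 1 spot per probe on each array. All 10 genes had a signal well above background on both arrays by the flag of the scanner software. The genes were chosen with their differences between the arrays in view, so these differences are given as a description, without a test.

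Intraepithelial lymphocytes (IELs) are T cells that lie between the epithelial cells of the gut. TCRαβ+ CD8αα+ IELs were sorted from the small intestine of C57BL/6 mice of 8 to 12 weeks as cells negative for TCRγδ, CD4 and CD8β, with male and female animals pooled. The labels give 2 genotypes. Control mice are named Rbpjf/f, with no Cre in the label, where the paper describes its controls as CD4-Cre mice with intact *Rbpj*. RFF4 stands for CD4-Cre Rbpjf/f mice. The Cre driven by *Cd4* acts in T cells from the thymus onward and leaves *Rbpj*, the DNA-binding partner of cleaved Notch receptors, intact in other cells. RNA from several isolations was pooled, and 1 pool per genotype was hybridized to 1 Agilent array, so the spread between mice is unknown, no SE or p-value is given, and no difference has a replicate check.

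S100 proteins are small proteins with a pair of EF-hand motifs, through which most of them bind calcium. They mostly act as dimers that attach to other proteins. S100A4, S100A6, S100A10 and S100A11 bind cytoskeletal proteins and annexins, and S100A4 is known from memory T cells, macrophages and fibroblasts. S100A8 and S100A9 together form calprotectin, an abundant protein of neutrophils and monocytes. S100G is the vitamin D-dependent calbindin that carries calcium across intestinal epithelial cells, and S100A14 is found mainly in epithelia.

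The 2 arrays shared a slide and a scan. Of 59305 gene spots, 57.2% were well above background on the Control array and 49.7% on the array labelled RFF4, and 0 spots were saturated on each. Levels are log2 signals relative to the 75th percentile of each array, and a difference is RFF4 minus Control. The technical SD of such a difference came from the spread of repeated spots within each array. It used probes spotted at least 10 times and well above background on both arrays. It was 0.13 over all such probes, 0.096 for probes with a Control level of −2 or more and 0.26 for dimmer ones. It does not cover labelling, hybridization or scaling errors between the arrays, or variation between mice. The known Notch targets *Heyl* and *Dtx1* differed by −3.80 and −3.63. *Rbpj* itself was not lower with 75th percentile scaling, with a level of 1.96 on the Control array and 2.28 on the other. This is a difference of 0.32, or −0.80 with the spike-in controls equalized. The other *Rbpj* probe had levels of −1.44 and −0.62, a difference of 0.82. The position of the *Rbpj* probes relative to the deleted exons is not given, so the second array is named by its label. The T cell genes *Cd3e* (8.10 and 8.44) and *Cd8a* (6.24 and 6.17) were bright on both arrays. *Cd8b1*, whose protein the sort excluded, was at −3.52 on the Control array and not well above background on the other, while *Cd4* was at 1.67 and 1.80. Each array measured a pool of cells, and more cells of a type cannot be told apart from more RNA per cell.

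The upstream sequences of the 4 genes that differed most are shown first. Of these, 3 hold TGGGAA, a part of the RBPJ binding motif, and the other is a neighbor of these genes without it. RefSeq entries of build GRCm38.p6 were present for 8 of the 10 genes. Each sequence is the 250 bases before the transcription start, on the strand of the gene. Capitals mark TGGGAA, called the RBPJ core here, on either strand (TTCCCA is its reverse), and TATAAA, the TATA box. No stretch in capitals overlaps another. The motifs were chosen after the *S100a4* sequence was seen.
S100a4 (chr3:90603520-90603769, plus strand): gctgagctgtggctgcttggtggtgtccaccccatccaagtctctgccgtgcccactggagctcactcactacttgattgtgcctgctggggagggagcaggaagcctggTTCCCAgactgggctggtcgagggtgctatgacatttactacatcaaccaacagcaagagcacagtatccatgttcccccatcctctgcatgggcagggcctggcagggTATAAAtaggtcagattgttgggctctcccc
S100a6 (chr3:90612644-90612893, plus strand): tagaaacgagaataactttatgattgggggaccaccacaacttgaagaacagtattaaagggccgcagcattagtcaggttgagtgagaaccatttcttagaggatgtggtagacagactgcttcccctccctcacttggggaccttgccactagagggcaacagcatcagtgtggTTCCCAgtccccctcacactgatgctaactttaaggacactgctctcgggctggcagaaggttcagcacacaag
S100a9 (chr3:90695722-90695971, minus strand): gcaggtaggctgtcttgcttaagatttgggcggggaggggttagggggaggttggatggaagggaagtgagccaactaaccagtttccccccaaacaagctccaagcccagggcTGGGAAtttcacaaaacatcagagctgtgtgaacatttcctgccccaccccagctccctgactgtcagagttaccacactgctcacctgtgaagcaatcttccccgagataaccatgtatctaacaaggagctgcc
S100a8 (chr3:90668821-90669070, plus strand): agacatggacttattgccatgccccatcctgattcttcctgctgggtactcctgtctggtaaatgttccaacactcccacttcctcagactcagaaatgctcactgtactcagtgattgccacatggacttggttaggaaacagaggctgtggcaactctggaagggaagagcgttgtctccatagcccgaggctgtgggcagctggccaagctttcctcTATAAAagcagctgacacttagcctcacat

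In *S100a4* the RBPJ core began 140 bases before the start, in *S100a6* 74 bases and in *S100a9* 136 bases. The sequences of *S100a1*, *S100a8*, *S100a11*, *S100a13* and *S100g* held no TGGGAA on either strand in this window. The same letters occur in 21.6% of 32851 upstream sequences of this length. TATAAA lay 31 bases before the start in *S100a4* and 30 bases in *S100a8*, and is found in 12.4% of all sequences. The AP-1 motif TGANTCA was present in *S100a11* alone among the 8 genes, at 2 positions, against 6.75% of all sequences. These matches are letters in a window, TGGGAA is only a part of the RBPJ binding motif, and binding was not measured.

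*S100a4* had the largest difference of the 10 genes. Its brighter probe had a background-subtracted signal of 37.5 on the Control array and 249 on the array labelled RFF4, which is a level of −3.76 and 0.14. This is a difference of 3.90 on the log2 scale, or 15.0-fold. The other probe had signals of 21.9 and 346, with levels of −4.54 and 0.61 and a difference of 5.15, or 35.6-fold. Both probes were thus near the bottom of the measured range on the Control array, where the raw spot medians of 69 and 58 stood against local backgrounds of 29 and 27, and close to the 75th percentile on the other array. The probes disagree on the size of the difference by more than the technical SD of dim probes and share its direction. Among 12955 genes well above background on both arrays, 3 had a larger positive difference than the brighter *S100a4* probe. The smallest difference under the alternatives run was 2.78, with the spike-in controls equalized, and normexp background correction gave 2.99.

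**Figure D1:**
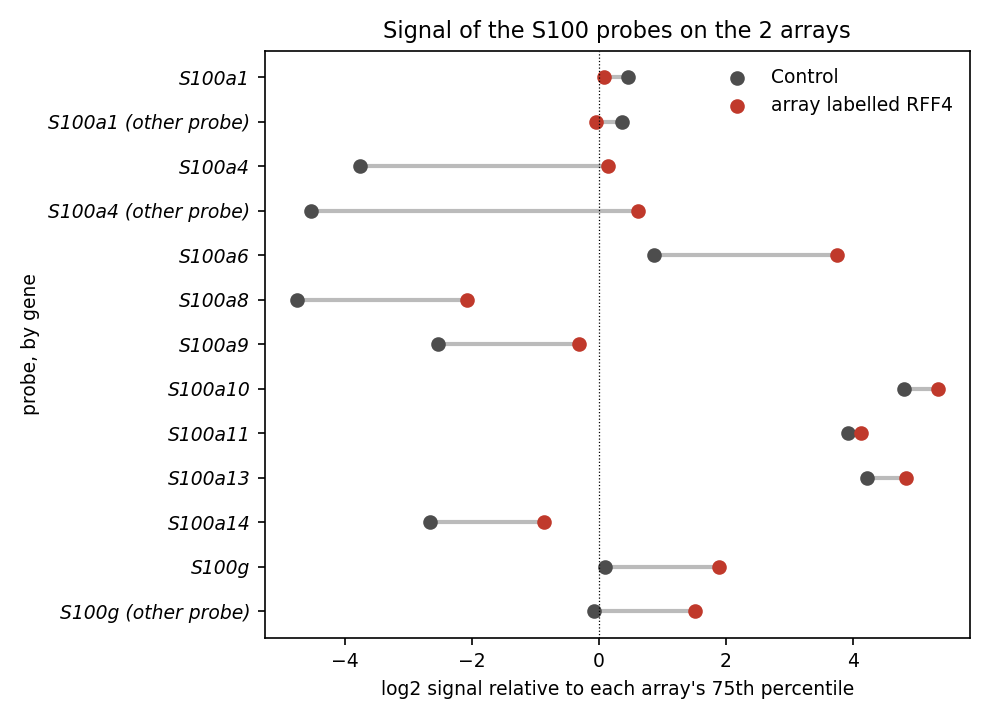
Signal of each of the 13 S100 probes on the Control array (gray) and the array labelled RFF4 (red), as log2 relative to the 75th percentile of each array (horizontal axis), with 1 array per genotype and no error bars; positions of different probes are not comparable with each other. Both *S100a4* probes move from below −3.7 to above 0, while *S100a10*, *S100a11* and *S100a13* stay close together and *S100a1* is the gene whose red points lie to the left.

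*S100a6*, which encodes calcyclin, was well above background by a wide margin on both arrays. Its signal was 932 on the Control array and 3064 on the array labelled RFF4, with levels of 0.87 and 3.76. The difference was 2.89, or 7.39-fold, and 25 of the 12955 genes had a larger one. Bright probes such as this one had a smaller technical SD than dim ones such as those of *S100a4*. The difference of *S100a6* stayed between 1.76 and 2.94 under the alternatives.

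The calprotectin genes were dim on the Control array and brighter on the one labelled RFF4. *S100a8* had a signal of 18.8 and 54.0, with levels of −4.76 and −2.07 and a difference of 2.69 (6.45-fold). *S100a9* had a signal of 87.9 and 183, with levels of −2.54 and −0.31 and a difference of 2.23 (4.68-fold). Both calprotectin genes thus differed in the same direction and by more than 4-fold. With normexp background correction *S100a8* was at 1.47 and *S100a9* at 1.66, and with the spike-in controls equalized they were at 1.56 and 1.1, so both were under 4-fold in these settings.

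The genes known from epithelia also had more signal on the array labelled RFF4. *S100g* had signals of 542 and 842 with its brighter probe, with levels of 0.089 and 1.89 and a difference of 1.80 (3.49-fold), and its other probe differed by 1.60. *S100a14* had signals of 80.9 and 124, with levels of −2.65 and −0.87 and a difference of 1.79 (3.46-fold). Both lay between 2-fold and 4-fold, and both differences were under 1 with the spike-in controls equalized (0.68 for *S100g* and 0.67 for *S100a14*).

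*S100a10*, *S100a11* and *S100a13* differed by less than 2-fold. *S100a10*, which encodes the p11 subunit that pairs with annexin A2, had levels of 4.81 and 5.34, a difference of 0.53. *S100a11* had levels of 3.93 and 4.13, a difference of 0.20. *S100a13*, whose protein takes part in the release of growth factors without a signal peptide, had levels of 4.22 and 4.83, a difference of 0.61. All 3 stayed under 2-fold in each alternative, and all 3 were lower on the array labelled RFF4 with the spike-in controls equalized (−0.59, −0.92 and −0.52), while *S100a11* was also at −0.033 with normexp background correction. *S100a1*, best known from heart muscle, was the one gene of the 10 with a lower scaled level on the array labelled RFF4, from 0.46 to 0.077. Its difference was −0.38, and −0.41 with the other probe, and with the spike-in controls equalized it was −1.50, more than 2-fold lower.

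Of the 10 genes, 6 exceeded 2-fold in favor of the array labelled RFF4, where 12.3% of the 13513 genes with a difference were, and 0 were more than 2-fold lower, where 5.06% of all genes were. More than 4-fold higher were 4 (*S100a4*, *S100a6*, *S100a8* and *S100a9*), against 1.85% of all genes, and 0 were more than 4-fold lower, against 0.585%. This count of 4 was 2 with normexp background correction (*S100a4* and *S100a6*) and 1 with the spike-in controls equalized (*S100a4*). The median over the 10 was 1.80 and over all genes −0.015. Since the genes were chosen on this contrast, nothing follows from these counts. Before any scaling, the raw signals of *S100a4*, *S100a6*, *S100a8*, *S100a9*, *S100a14* and *S100g* were higher on the array labelled RFF4, and those of *S100a1*, *S100a10*, *S100a11* and *S100a13* were lower, on an array that was dimmer as a whole (75th percentile of 7.82 against 8.99 as log2 signal).

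**Figure D2:**
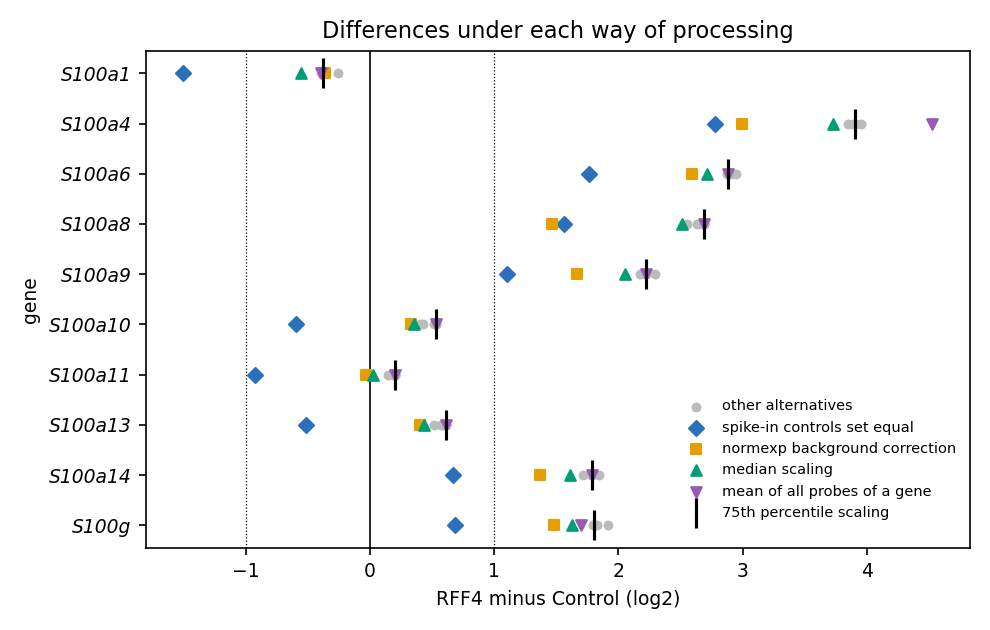
Difference between the arrays, RFF4 minus Control on the log2 scale (horizontal axis), for each of the 10 genes under 75th percentile scaling (black bar) and each alternative (symbols), with dotted lines at 2-fold. *S100a4*, *S100a6*, *S100a8* and *S100a9* stay above 1 in each setting, and equalizing the spike-in controls moves every gene to the left, which places *S100a10*, *S100a11* and *S100a13* below 0.

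The genes were chosen by name and not by position, but most of the S100 genes listed here lie on chromosome 3. Their shared chromosome therefore follows largely from that choice. In RefSeq, 9 of the 10 lie on chromosome 3 and *S100g* lies on chromosome X. The 15 S100 genes of chromosome 3 follow each other in the order *S100a1*, *S100a13*, *S100a14*, *S100a16*, *S100a3*, *S100a2*, *S100a4*, *S100a5*, *S100a6*, *S100a7a*, *S100a8*, *S100a9*, *S100a7l2*, *S100a11* and *S100a10*. From *S100a1* to *S100a9* no other protein-coding gene lies between them, while *S100a11* and *S100a10* stand 62 and 63 protein-coding genes beyond *S100a4*. The 4 genes past 4-fold with 75th percentile scaling lie in the stretch from *S100a4* to *S100a9*. They are not an unbroken run. *S100a5*, between *S100a4* and *S100a6*, had a level of −4.33 on the Control array and was not well above background on the other, so no difference is given. *S100a7a*, between *S100a6* and *S100a8*, was not well above background on either array.

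On the other side of *S100a4*, *S100a2* had levels of −4.05 and −3.29, a difference of 0.77. *S100a3* had levels of −4.33 and −3.06, a difference of 1.27. *S100a16* differed by 0.89 with its brighter probe and by 1.77 with the other. The neighbors on this side thus had smaller differences than *S100a4*, and that of *S100a2* and of the brighter *S100a16* probe turned negative with the spike-in controls equalized (−0.35 and −0.23). Of 9 further genes, which are S100 genes and *S100pbp*, for a protein that binds one of them, 5 had a difference, 1 was more than 2-fold higher and 0 were lower by as much. The 1 gene, *S100a3*, was under 2-fold with normexp background correction (0.98) and with the spike-in controls equalized (0.15), while *S100a16* passed 2-fold with the mean of its probes (1.33) and, narrowly, with cyclic loess (1.004). *S100z*, on chromosome 13, differed by 0.85, and *S100pbp*, on chromosome 4, by −0.13, and with the spike-in controls equalized they were at −0.28 and −1.25. *S100b* and *S100a7l2* were not well above background on either array.

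**Figure D3:**
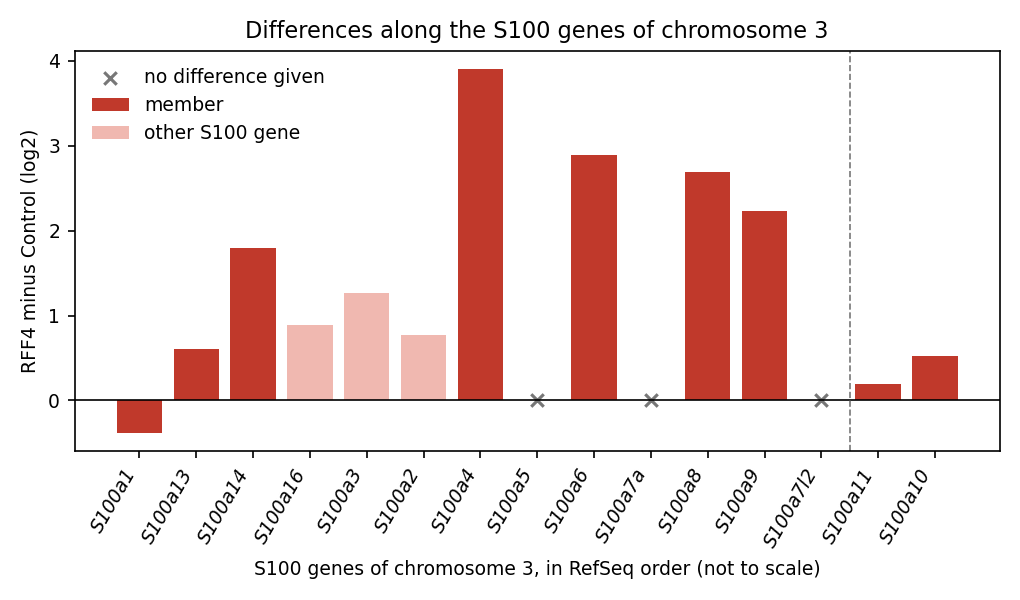
Difference between the arrays, RFF4 minus Control on the log2 scale (vertical axis), for the 15 S100 genes of chromosome 3 in their RefSeq order, not to scale, with the 9 described genes in dark red, further S100 genes in light red and crosses where no difference could be given; the dashed line marks the gap before *S100a11* and *S100a10*. The tallest bars, from 2.23 to 3.90, stand between *S100a4* and *S100a9*, with *S100a5* and *S100a7a* among them as crosses.

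Genes for proteins that S100 proteins bind were listed as well. Of 14 genes for partners and receptors, 11 had a difference, with a median of 0.18 that turned to −0.81 with the spike-in controls equalized. More than 2-fold higher were *Anxa1* and *Anxa2*, and 0 were more than 2-fold lower. *Anxa2*, whose protein forms a complex with S100A10, had levels of 5.36 and 6.67, a difference of 1.30, which was 0.18 with the spike-in controls equalized. *Anxa1*, which encodes the partner of S100A11, was dim, with levels of −4.14 and −2.15 and a difference of 1.98 (1.28 with normexp background correction and 0.86 with the spike-in controls equalized), and its other probe was not well above background on either array. *Ahnak*, a large scaffold that binds S100A10 with annexin A2, differed by 0.74 with its brightest probe, and its 4 probes ranged from 0.74 to 1.77. *Myh9*, the nonmuscle myosin heavy chain that S100A4 binds, was bright on both arrays (7.48 and 7.51) and differed by 0.032, while cyclic loess gave −0.29, quantile normalization −0.49 and equalized spike-in controls −1.09. *Cacybp*, which encodes the calcyclin-binding protein, differed by −0.014, and by −1.14 with the spike-in controls equalized. Differences of *Anxa5* (0.14), *Anxa6* (0.97), *Anxa11* (0.17), *Sugt1* (0.18), *Bsg* (0.45) and *Ppfibp1* (−0.42) were under 2-fold. With the spike-in controls equalized, these 6 and *Ahnak* lay between −1.54 (*Ppfibp1*, more than 2-fold lower) and −0.15 (*Anxa6*). *Tlr4* and *Cd36*, which encode receptors for secreted S100A8 and S100A9, were not well above background on either array. *Ager*, which encodes the receptor RAGE, was at −4.94 on the Control array and not well above background on the other.

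Other calcium-binding genes of the EF-hand type were compared as a list of 30, of which 25 had a difference. Their median was 0.21 (−0.91 with the spike-in controls equalized), with 2 genes more than 2-fold higher and 0 lower. The genes past 2-fold were *Calml4* (1.43) and *Capn9* (1.56), both known from gut epithelium.

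Marker genes of other cells moved between the arrays as well. Of 15 epithelial markers, 15 had a difference above 0 and 14 exceeded 2-fold, with a range of 0.40 to 1.89 and a median of 1.59 (0.47 with the spike-in controls equalized). Their summed signal, in units of the 75th percentile, was 215 on the Control array and 673 on the other. Such a sum weights probes by their own brightness, so it is set against the same list on the other array and not against another list. With 75th percentile scaling, *S100g* and *S100a14* lay inside this range of differences, and *S100a4*, *S100a6*, *S100a8* and *S100a9* above it. With normexp background correction the epithelial median was 1.39, close to *S100a8* (1.47) and *S100a9* (1.66). Of the vitamin D and duodenal genes, *Vdr* differed by 0.98 and *Slc40a1* by 1.41, *Trpv6* by −0.10 and *Atp2b1* by −0.10, with a median of 0.44 that turned to −0.69 with the spike-in controls equalized, and *Cyp24a1* was not well above background on either array. The part of epithelial RNA in the S100 differences was not tested.

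Of 12 macrophage and dendritic cell markers with a probe, 10 had a difference, and all 10 were higher, with a median of 1.90 (1.21 with normexp background correction and 0.44 with the spike-in controls equalized). *Cx3cr1* differed by 3.57, *H2-Aa* by 2.95 and *Lyz2* by 2.42, and *C1qc* was at least 5.74-fold higher. The summed signal of the list was 47.8 and 61.0, and 1.90 and 8.05 without *Itgax*, which IELs also express. *Mrc1* was not well above background on either array. Their part in the S100 differences was not tested either.

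Neutrophil markers, set beside the calprotectin genes, differed in both directions. Of 12 with a probe, 7 had a difference, 4 of them above 0 and 3 below, with a median of 0.16 (0.53 with normexp background correction and −0.96 with the spike-in controls equalized). *Retnlg* differed by 1.32, *Lcn2* by 0.96 and *Elane* by 0.74, while *Ltf* differed by −0.86 and *Mpo* by −0.51. The summed signal was 194 and 185, and 1.67 and 2.34 without *Csf3r*. *Ngp*, *Cxcr2*, *Mmp8*, *Mmp9* and *Prtn3* were not well above background on either array, while the other 7, granule genes such as *Elane*, *Mpo* and *Ltf* among them, were on both. The part of neutrophil RNA in the S100 differences was not tested. Of 7 fibroblast markers, 4 had a difference, *Dcn* with 1.86, *Col3a1* with 1.47, *Col1a2* with 0.89 and *Col1a1* with −0.16. Their median was 1.18, and 0.054 with the spike-in controls equalized. *Pdgfra*, *Pdgfrb* and *Lum* were not well above background on either array, and the list summed to 0.73 and 1.75.

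*S100a4* is also known from T cells that circulate or have become memory cells. Of 15 such genes with a probe, 14 had a difference above 0 and 9 exceeded 2-fold, with a median of 1.21 (0.082 with the spike-in controls equalized). *Lgals1*, which encodes galectin-1, differed by 2.21, *Il7r* by 1.91, *Emp3* by 1.46, *Klf2* by 1.25 and *Cd44* by 1.21. *Itgb7* (0.065) and *Lgals3* (−0.37) did not differ by 2-fold. The difference of *S100a4* was above that of each measured gene of this list. By size of difference alone, the 3 genes nearest to *S100a4* among those well above background on both arrays were *Tbc1d16* (3.96), *Thy1* (3.80), which encodes CD90, and *Clu* (4.14), where likeness rests on 2 arrays. T cell identity and gate genes had a median of 0.13 over 11 genes (−0.043 with normexp background correction and −0.99 with the spike-in controls equalized), 0 of them past 2-fold in either direction.

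**Figure D4:**
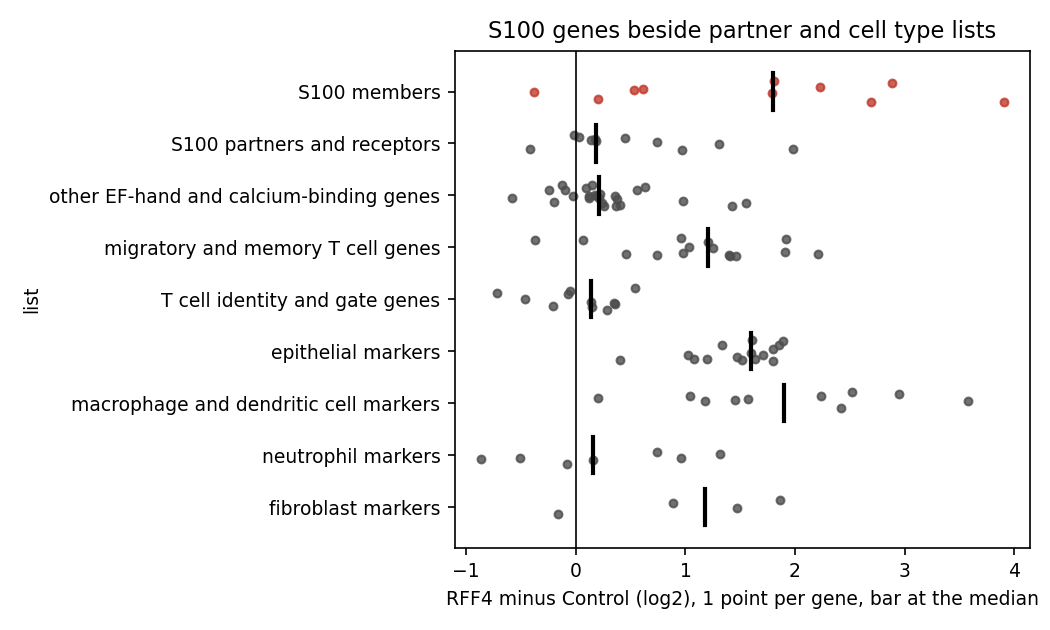
Difference between the arrays, RFF4 minus Control on the log2 scale (horizontal axis), with 1 point per gene having a difference, for the 10 S100 genes (red) and 8 comparison lists (gray), and a bar at each median; vertical scatter has no meaning. The S100 genes spread from −0.38 to 3.90, the epithelial markers from 0.40 to 1.89, and the T cell identity genes lie around 0.13.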

How the data were processed

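Gene expression of sorted TCRαβ+ CD8αα+ IELs was measured on 2 Agilent arrays of 1 color, 1 per genotype. The authors' scanner software, Agilent Feature Extraction 10.7.1.1 per the labels, made the deposited intensity values, which are background-subtracted, linear and not normalized between arrays. The deposited table holds log2 values centered per probe, with GeneSpring settings not given in the sources used here. It has 62976 lines. Those without a value (6231) or repeating a probe (924) were dropped, leaving 55821.

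Log2 intensities were scaled to the 75th percentile of each array. Spots marked as controls or outliers were dropped, repeat spots averaged, and a probe counted as well above background with the flag on 50% or more of them. Of 55679 probes, 27509 matched a RefSeq symbol (GRCm38.p6). The probe with the highest mean represented a gene. Genes needed this flag on 1 array or more. Where the dim array lacked it, its own signal or the array's detection floor (the lowest flagged signal), whichever was higher, gave a bound, and no difference is given where that bound was under 1-fold. This left 13513 genes.

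Named genes were all S100 genes with all their probes, their partners and receptors, the targeted gene and known Notch targets, the 3 genes nearest in difference to *S100a4*, and of other lists the defining markers and those beyond 2-fold. A few others of these lists (*Vdr*, *Atp2b1*, *Itgb7*, *Lgals3* and *Elane* among them) were named after their values were seen, and some genes of the lists are not reported here. Members and lists were chosen with earlier results of these data known. Normexp used an offset of 50 on median spot signals, and 8 spike-in probes were used. The alternatives are given in the closing section. Python 3.11.15, numpy 2.4.6, pandas 2.3.3, matplotlib 3.10.9, R 4.3.3 and limma 3.58.1 were used. The scaling and the gene-level differences were tested on simulated data. The handling of spots, the alternatives, the technical SD and the motif search were not.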

Additional observations from a re-analysis of the deposited data

How the results depend on the processing

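No paired analysis was possible because each genotype has 1 array, and no array could be left out. Under the 10 alternatives, 6 of the S100 genes stayed past 2-fold in favor of the array labelled RFF4, except with the spike-in controls equalized, where 4 did and 1, *S100a1*, was more than 2-fold lower. More than 4-fold higher were 4, against 2 with normexp background correction and 1 with the spike-in controls equalized. The median over the 10 genes was 1.62 with median scaling, 1.42 with normexp background correction and 0.67 with the spike-in controls equalized, and moved by less than the technical SD in the other alternatives. Median scaling and the spike-in controls shift the median of all genes by −0.17 and −1.09. Over all genes, 1665 were past 2-fold upward and 684 downward with 75th percentile scaling, against 1316 and 1095 with median scaling, 198 and 8092 with the spike-in controls equalized, and 6271 and 983 with no filter and no bound, so that the higher genes made up 70.9%, 54.6%, 2.39% and 86.4% of these calls. The amount of cells or RNA to which spike-in controls were added is not given. The signals of *S100a4* and *S100a8* were close to background on the Control array, and the cause of the moves between settings was not tested.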
